A study of Mus musculus with 15 samples.

Results

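The genes described here are 40 genes of fatty acid oxidation and of the peroxisome, chosen as a list of symbols that covers the mitochondrial and the peroxisomal steps of the pathway and its regulators. All 40 were found among 24421 genes counted by RNA-seq in primary mouse kidney proximal tubule cells, and all 40 had enough counts to be tested. There were 15 libraries from cells of C57BL/6 mice, in the groups male KO (Diet1 knockout, n = 3), male WT (wild type, n = 4), female KO (n = 4) and female WT (n = 4). Diet1, now named Malrd1, encodes a protein of intestine and kidney linked in the literature on mice to the control of bile acids. Per the labels, each group's cells came from 3 to 4 mice put together before culture, and its libraries are technical splits of that pool. Every p-value below, except those of the fit with pools as units, is therefore about technical spread. Variation from mouse to mouse or from culture to culture is outside that spread. Malrd1 was not analysed here, so the genotype was not checked against its own transcript.

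Fatty acids are bound and stored in the cytosol, joined to coenzyme A by acyl-CoA synthetases and carried into mitochondria by the carnitine shuttle, where each turn of beta-oxidation removes an acetyl-CoA and passes electrons to the respiratory chain. Peroxisomes shorten very long, branched and dicarboxylic chains with their own oxidases, bifunctional enzymes and thiolases, which reach the organelle through peroxins. The nuclear receptor PPAR alpha, with its coactivator PGC-1 alpha, is known to switch on genes of both organelles, and the proximal tubule in the kidney is known for its reliance on fatty acids as fuel.

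Libraries held 17648416 to 30896637 counts, at which 3 counts correspond to 0.0971 to 0.17 CPM (counts scaled to a library size of 1e+06, with TMM factors). Pearson's r of log2 CPM was at least 0.994 within groups and at most 0.9926 between groups. The epithelial genes Krt8, Krt18, Cdh1 and Pax8 were abundant, with Krt8 at 2360 CPM in male KO, 1790 CPM in male WT, 2090 CPM in female KO and 1540 CPM in female WT. Of 18 proximal tubule markers 11 reached 1 CPM on average. The phosphate transporter Slc34a1, a defining marker of the tubule in the kidney, had no count in either KO group and means of 0.0139 CPM in male WT and 0.038 CPM in female WT, and the glucose transporter Slc5a2 averaged 0.0821 to 0.317 CPM. The cultures expressed epithelial genes, while these defining transporters were at or near 0.

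Levels between genes are compared here per kilobase of annotated exon. The length counts every annotated exon base of a gene, merged over its transcripts, so it can exceed that of the transcripts present. The order of genes depends on these lengths, such as 8.73 kb for Hadha and 3.4 kb for Hsd17b4. The lipid droplet coat protein Plin2 was the highest of the 40, at 178 CPM per kb in male KO, 182 CPM per kb in male WT, 162 CPM per kb in female KO and 173 CPM per kb in female WT. It was followed by the long-chain acyl-CoA dehydrogenase Acadl, with a mean of 67.3 CPM per kb over the groups, and by the peroxisomal D-bifunctional protein Hsd17b4, with 40.1 CPM per kb. The lowest were the regulators and a fatty acid transporter. Ppara averaged 0.27 CPM per kb, the transporter Cd36 also 0.27 CPM per kb and Ppargc1a, which encodes PGC-1 alpha, 0.221 CPM per kb. Between these ends the acyl-CoA synthetase Acsl4 (32.6 CPM per kb) and Acsl5 (26.1 CPM per kb) stood above Acsl1 (1.79 CPM per kb), and Cpt2 (15.6 CPM per kb) above Cpt1a (5.82 CPM per kb). Without the division by length the order of Cpt1a and Cpt2 was reversed, with group means of 39 to 49.1 CPM and 34.7 to 39.5 CPM. Levels spanned from Ppargc1a to Plin2 within each group, as the plot of levels per kilobase shows.

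**Figure D1:**
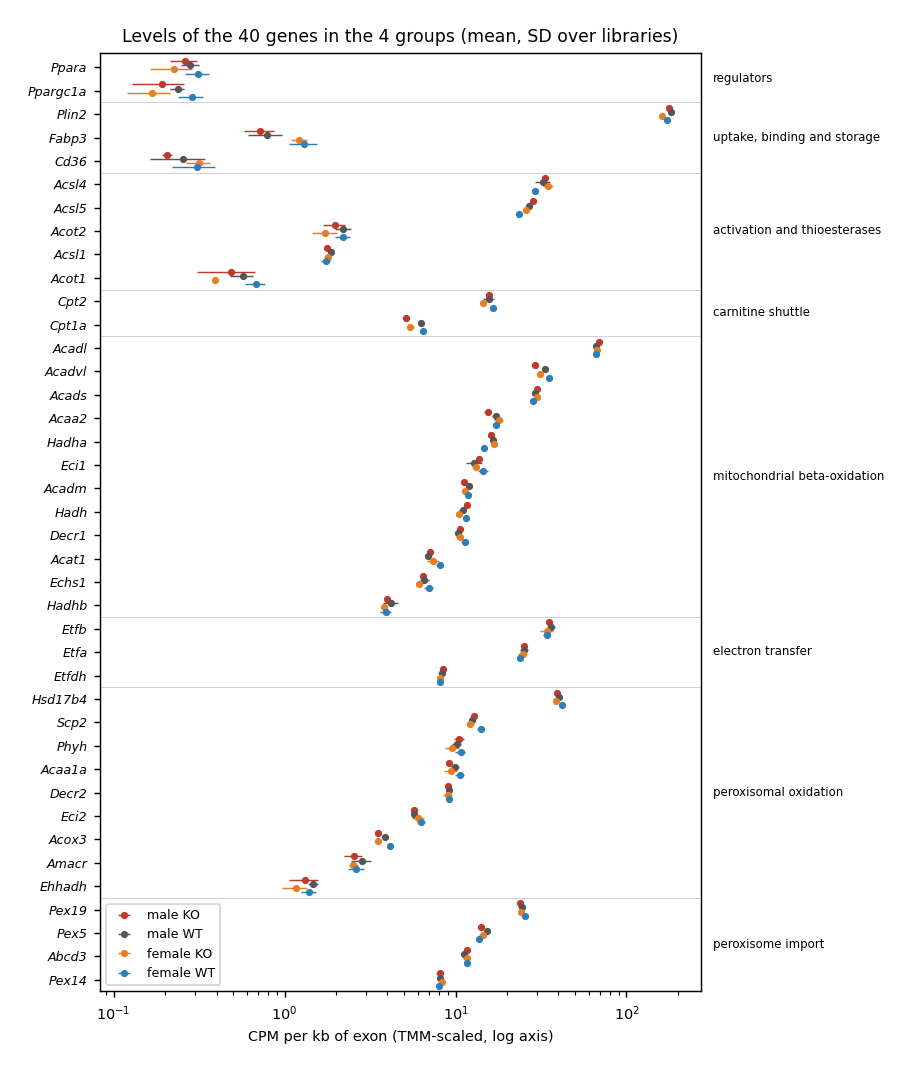
Mean level of each of the 40 genes (CPM per kb of exon, log axis) in male KO, male WT, female KO and female WT cells, with the SD over 3 or 4 libraries, ordered by role and by level. Plin2 lies near 174 and Ppargc1a near 0.221 CPM per kb, and the groups of a gene lie close together beside the distance between genes.

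The comparison of male KO with male WT cells asked which of these transcripts differed between these groups. As each group is a single pool of cells, genotype and pool cannot be told apart here. A gene was called at an edgeR adjusted p below 0.05, taken over all 13912 genes tested. In male cells 3 of the 40 (7.5%) fell in KO and none rose, against 20.2% of all genes tested called in either direction and 10.1% lower. They were Cpt1a, Acadvl and Acox3, which act at the mitochondrial gate, at the entry step of very long chains into beta-oxidation, and at the oxidase step of the peroxisome. At 1.5-fold or more no member was called, against 3.21% of all genes. The median log2 fold change of the 40 was -0.03, against 0.0002 over all genes tested. At an unadjusted p below 0.05 there were 8 members, 20% of them against 31.4% of all genes.

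Cpt1a, the carnitine acyltransferase of the outer mitochondrial membrane that controls the entry of long chains (chromosome 19, 3322334 to 3385733, build GRCm38), stood at 39.3, 37.8 and 40 CPM in male KO libraries, against 47.7, 48.5, 48.7 and 48.3 CPM in male WT libraries. In female cells it stood at 39.3, 43.3, 40.7 and 42.9 CPM in KO, against 47.2, 50.9, 50.2 and 47.9 CPM in WT. In both sexes every KO library lay below every WT library. The log2 fold change was -0.31 ± 0.0457 (SE) in male cells (edgeR adjusted p = 4.3e-06). It was -0.24 ± 0.042 (SE) in female cells (edgeR adjusted p = 2.26e-05), and the female and male effects differed by 0.07 ± 0.0621 (SE; edgeR adjusted p = 0.538). These are falls to 0.809 and 0.848 times the WT level.

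Acadvl, the very long-chain acyl-CoA dehydrogenase (chromosome 11, 70010183 to 70015411), stood at 74.7, 80.6 and 78.8 CPM in male KO, against 94.1, 88.0, 87.7 and 89.1 CPM in male WT. In female cells it stood at 86.2, 83.2, 85.8 and 81.0 CPM in KO, against 90.8, 96.4, 94.0 and 95.6 CPM in WT. The groups did not overlap in either sex. The log2 fold change was -0.20 ± 0.0381 (SE) in male cells (edgeR adjusted p = 0.000124) and -0.16 ± 0.035 (SE) in female cells (edgeR adjusted p = 0.000264). Of its exon bases 1151 overlap Dvl2 on the opposite strand, and whether the counting used strand is not given in the sources used here. Dvl2 itself had log2 fold changes of -0.02 in male and 0.03 in female cells, with edgeR adjusted p of 0.907 and 0.75.

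Acox3, an acyl-CoA oxidase of the peroxisome that acts on branched chains (chromosome 5, 35583040 to 35615352), stood at 41.9, 40.7 and 39.3 CPM in male KO, against 44.7, 43.2, 44.0 and 46.3 CPM in male WT. In female cells it stood at 41.7, 38.4, 41.0 and 42.1 CPM in KO, against 46.8, 47.9, 47.2 and 48.4 CPM in WT. KO libraries again lay below WT libraries in both sexes. The log2 fold change was -0.13 ± 0.0452 (SE) in male cells (edgeR adjusted p = 0.0332) and -0.22 ± 0.0418 (SE) in female cells (edgeR adjusted p = 5.44e-05). The difference between the sexes did not pass the test (-0.09 ± 0.0616, SE, edgeR adjusted p = 0.383). The male call was lost in 7 of 24 alternative settings, among them the DESeq2 test and the fits without male KO replicate 2, male KO replicate 3 or male WT replicate 4, where the adjusted p reached 0.173. The calls of Cpt1a and Acadvl held in all 24 settings in both sexes. Of the exon bases of Acox3, 700 overlap 4931431C16Rik on the opposite strand, a gene with a mean of 0.178 CPM.

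Cpt1a, Acadvl and Acox3 were also the members called lower in both sexes, 3 of 40 (7.5%), against 5.01% of all genes tested. No member was called higher in both sexes, against 7.38% of all genes. In bulk samples, fewer cells of a type and less RNA per cell cannot be told apart. Among male cells the sums of 10 endothelial markers and 10 fibroblast markers also differed, at 49.8 to 56.5 CPM in KO against 109 to 122 CPM in WT for endothelium, of which 9 reached 1 CPM. For fibroblasts the sums were 1790 to 1980 CPM in KO against 3430 to 3670 CPM in WT, with 8 markers at 1 CPM or more. In female cells the endothelial sum was 49.2 to 64.2 CPM in KO against 43.3 to 50.7 CPM in WT, and the fibroblast sum 2550 to 2780 CPM in KO against 3570 to 3850 CPM in WT. The 18 proximal tubule markers summed to 5580 to 5680 CPM in male KO against 4420 to 4700 CPM in male WT, and to 4930 to 5090 CPM in female KO against 4130 to 4280 CPM in female WT. These sums are carried by the keratins Krt8 and Krt18 and by Cdh1, whereas the endocytic receptor Lrp2 and the brush border enzyme Ggt1 fell in both sexes. Lrp2 averaged 15.4 CPM in male KO against 21 CPM in male WT and 12.1 CPM in female KO against 19.5 CPM in female WT. Ggt1 averaged 37.1 CPM in male KO against 47.7 CPM in male WT and 35.5 CPM in female KO against 68.7 CPM in female WT. Of 12 tested proximal tubule markers 4 rose and 2 fell in male KO, and 2 rose and 4 fell in female KO. Leukocyte markers summed to 34.9 to 36.9 CPM in male KO against 22.9 to 27.9 CPM in male WT, and to 51.4 to 63.1 CPM in female KO against 37.5 to 45.7 CPM in female WT. Thick limb and distal nephron markers summed to 6.97 to 8.88 CPM in male KO against 10.7 to 13.1 CPM in male WT, and to 4.29 to 8.18 CPM in female KO against 18.9 to 21.1 CPM in female WT. Smooth muscle and pericyte markers summed to 2830 to 2910 CPM in male KO against 3390 to 3730 CPM in male WT, and to 3630 to 4200 CPM in female KO against 3690 to 3740 CPM in female WT. Podocyte markers summed to 429 to 467 CPM in male KO against 502 to 532 CPM in male WT, and to 337 to 379 CPM in female KO against 331 to 351 CPM in female WT. The 8 adipocyte markers, of which 2 reached 1 CPM, summed to at most 6.44 CPM in KO libraries and at most 11.3 CPM in WT libraries. The part of these cell types in the results below was not tested.

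**Figure D2:**
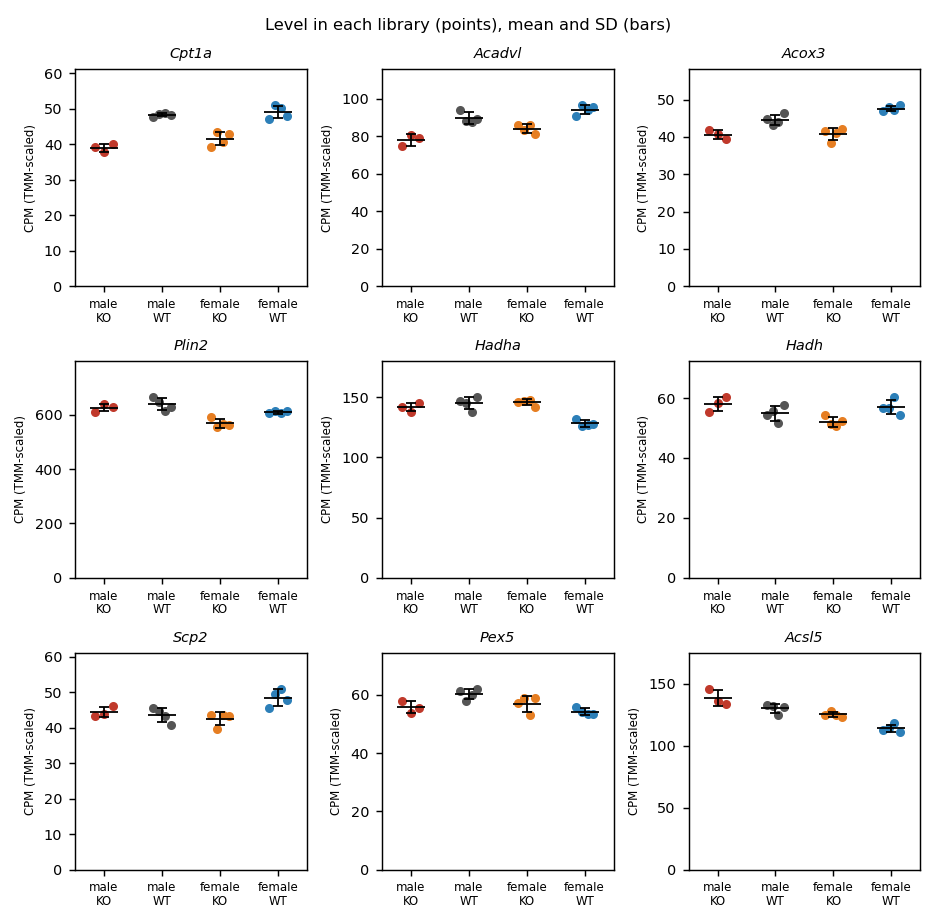
Level in each library (points, CPM scaled by TMM, axes from 0) with mean and SD (bars) for Cpt1a, Acadvl, Acox3, Plin2, Hadha, Hadh, Scp2, Pex5 and Acsl5. For Cpt1a all 7 KO libraries lie between 37.8 and 43.3 CPM and all 8 WT libraries between 47.2 and 50.9 CPM, while Hadha is set apart only in female WT, at 126 to 132 CPM.

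PPAR alpha is known to bind pairs of the half-site AGGTCA spaced by 1 base. Of the 3 genes that fell in both sexes, Acox3 had 0 half-sites in the promoter window searched. Cpt1a and Acadvl are shown because they have this half-site, with no annotated exon in the stretch printed. The sequences run from 220 to 21 bases before the transcript start, from RefSeq on GRCm38.p6, in the direction of the gene, with the half-site in capitals. In Cpt1a (chr19:3323081-3323280, plus strand) it lies on the opposite strand and begins 94 bases before the start, and in Acadvl (chr11:70015449-70015648, minus strand) it lies on the gene's strand and begins 87 bases before the start. The gene span of Cpt1a given above, from GENCODE, begins at 3322334. The Cpt1a stretch therefore lies inside that span, before the RefSeq start used here.
Cpt1a: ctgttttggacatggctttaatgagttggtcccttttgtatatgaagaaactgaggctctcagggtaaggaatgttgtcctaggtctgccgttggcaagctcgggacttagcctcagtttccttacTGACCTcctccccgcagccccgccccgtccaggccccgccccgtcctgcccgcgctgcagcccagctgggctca
Acadvl: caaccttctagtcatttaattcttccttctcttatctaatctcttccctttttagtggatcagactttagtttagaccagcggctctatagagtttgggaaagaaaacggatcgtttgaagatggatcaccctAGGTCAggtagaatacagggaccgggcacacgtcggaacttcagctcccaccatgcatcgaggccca

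Promoter windows of 300 bases, 250 before and 50 after the start, were at hand for 34 of the 40 genes, and both strands were searched. The full pair, AGGTCA then any base then AGGTCA, was in none of the 34, against 0.0481% of all genes. A looser pair, with any base at the fourth place of each half-site, was likewise in none, against 0.451% of all genes. The half-site alone, which the paired motifs contain, was in 8 of 34 (23.5%), against 18.1% of all genes. The 8 were Acadm, Acadvl, Cd36, Cpt1a, Echs1, Phyh, Plin2 and Scp2. A match describes the letters in the window and is not a binding site, and a window without a match says nothing of binding elsewhere.

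The comparison of female KO with female WT cells asked the same question in female cells, with the same limit from the pools. There 16 of the 40 (40%) were called, near the 39.3% of all genes tested. Of them 13 fell (32.5%, against 18.6% of all genes) and 3 rose (7.5%, against 20.7% of all genes). The genes that fell lay in every role except electron transfer and peroxisome import, and the genes that rose were the acyl-CoA synthetases Acsl4 and Acsl5 and the trifunctional protein subunit Hadha. The changes were small, since only Ppargc1a and Acot1 reached 1.5-fold, 5% of the members against 6.73% of all genes. The median log2 fold change of the 40 was -0.08, against 0.0001 over all genes tested. With libraries scaled by their size alone, 3 members were higher and 18 lower, and the split over all genes moved as well, to 16.4% higher and 24.7% lower.

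**Figure D3:**
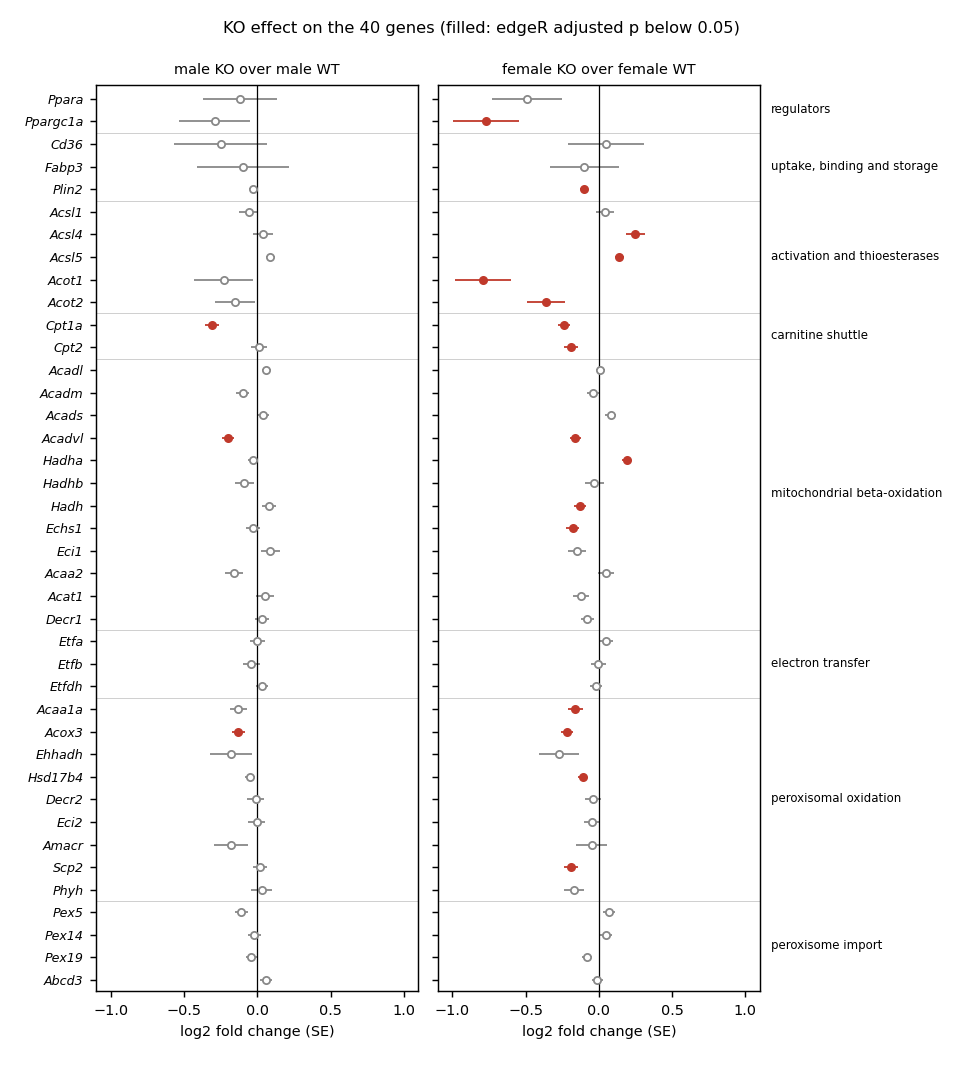
Log2 fold change of KO over WT with its standard error for the 40 genes, in male cells (left) and female cells (right), ordered by role, with filled symbols at an edgeR adjusted p below 0.05. The filled symbols are 3 in male cells, all left of 0, and 16 in female cells, 13 left and 3 right of 0.

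Among the regulators, Ppargc1a (chromosome 5, 51454250 to 51567726) stood at 1.2, 0.649, 1.34 and 1.22 CPM in female KO, against 2.13, 1.54, 2.2 and 1.71 CPM in female WT. All KO libraries lay below all WT libraries, at 13 to 29 counts in KO and 29 to 45 counts in WT. The log2 fold change was -0.77 ± 0.224 (SE; edgeR adjusted p = 0.00604). In male cells it was -0.29 ± 0.243 (SE; edgeR adjusted p = 0.461), with overlapping libraries, and the difference between the sexes did not pass the test (edgeR adjusted p = 0.381). Ppara had 14 to 35 counts in any library. It averaged 0.866 ± 0.24 CPM in female KO and 1.2 ± 0.193 CPM in female WT (SD, n = 4 each), a log2 fold change of -0.49 ± 0.24 (SE) that did not pass the test (edgeR adjusted p = 0.103). In male cells Ppara had a log2 fold change of -0.12 ± 0.252 (SE; edgeR adjusted p = 0.79). At this depth an effect of Ppara between -0.96 and -0.02 in female cells and between -0.62 and 0.37 in male cells lies within the 95% interval.

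Among genes of uptake, binding and storage, Plin2 stood at 590, 555, 564 and 561 CPM in female KO, against 605, 614, 604 and 612 CPM in female WT. The groups did not overlap, and the log2 fold change was -0.10 ± 0.0261 (SE; edgeR adjusted p = 0.002). In male cells Plin2 averaged 625 ± 12.9 CPM in KO (n = 3) and 638 ± 21.5 CPM in WT (n = 4), which overlapped. Cd36, at 14 to 31 counts per library, and the cytosolic fatty acid-binding protein Fabp3, at 11 to 29 counts, were called in neither sex. Their log2 fold changes lay between -0.25 and 0.05. Of the 50-base words of Fabp3, 29.2% also occur in the pseudogene Fabp3-ps1, so its counts may depend on how shared reads were treated.

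In activation, 2 of the 3 synthetases rose in female KO. Acsl4, which prefers polyunsaturated chains (chromosome X, 142317993 to 142390535), stood at 170, 190, 197 and 198 CPM in female KO, against 159, 151, 158 and 165 CPM in female WT, with no overlap. Its log2 fold change was 0.25 ± 0.065 (SE; edgeR adjusted p = 0.00729). Acsl5 stood at 125, 128, 125 and 123 CPM in female KO, against 113, 114, 118 and 111 CPM in female WT, a log2 fold change of 0.14 ± 0.0321 (SE; edgeR adjusted p = 0.000809). In male cells Acsl5 was at 146, 136 and 134 CPM in KO, against 133, 132, 125 and 131 CPM in WT. These male groups did not overlap either, while the log2 fold change of 0.09 ± 0.0339 (SE) missed the threshold (edgeR adjusted p = 0.0581). Acsl1 was called in neither sex, at log2 fold changes of -0.06 ± 0.0647 (SE) in male and 0.04 ± 0.0608 (SE) in female cells.

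The thioesterases, which split acyl-CoA back into acid and coenzyme A, fell in female KO. Acot1, the cytosolic enzyme (chromosome 12, 84009490 to 84018371), stood at 1.54, 1.5, 1.52 and 1.58 CPM in female KO, against 2.23, 3.09, 2.78 and 2.54 CPM in female WT, with no overlap. This was a log2 fold change of -0.79 ± 0.189 (SE; edgeR adjusted p = 0.00106), a fall to 0.58 times the WT level. Acot2, its mitochondrial relative in the same cluster, stood at 4.05, 4.24, 2.86 and 4.01 CPM in female KO, against 5.12, 4.1, 4.98 and 5.12 CPM in female WT. These libraries overlapped, at a log2 fold change of -0.36 ± 0.131 (SE; edgeR adjusted p = 0.0273). The call was lost when female KO replicate 3, female WT replicate 1, female WT replicate 3 or female WT replicate 4 was left out, with an adjusted p of up to 0.148. The genes share sequence, with 13.6% of the 50-base words of Acot1 found in Acot2 and 24.6% of those of Acot2 found in Acot1, so reads may have been split between them.

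In the carnitine shuttle, Cpt2, the partner of Cpt1a on the inner membrane, stood at 35.9, 33.4, 34.4 and 35.0 CPM in female KO, against 40.9, 38.1, 39.6 and 39.5 CPM in female WT. KO libraries lay below WT libraries, and the log2 fold change was -0.19 ± 0.0495 (SE; edgeR adjusted p = 0.00229). In male cells it was 0.01 ± 0.0529 (SE; edgeR adjusted p = 0.934). The difference between the sexes, -0.20 ± 0.0725 (SE), just missed the threshold (edgeR adjusted p = 0.0579).

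Of the 12 genes of mitochondrial beta-oxidation, Acadvl, Echs1 and Hadh fell and Hadha rose in female KO (33.3% called, against 39.3% of all genes), at a median log2 fold change of -0.06. Echs1, the short-chain enoyl-CoA hydratase, stood at 52.4, 49.8, 49.9 and 51.6 CPM in female KO, against 60.6, 59.8, 58.1 and 53.0 CPM in female WT. It had a log2 fold change of -0.18 ± 0.0453 (SE; edgeR adjusted p = 0.00145). Hadh, which oxidises the hydroxyacyl-CoA of short and medium chains, stood at 54.3, 51.2, 50.6 and 52.3 CPM in female KO, against 56.6, 56.8, 60.3 and 54.5 CPM in female WT. Neither gene's groups overlapped, and the Hadh log2 fold change was -0.13 ± 0.0423 (SE; edgeR adjusted p = 0.0134). Its call was lost without female WT replicate 3 (adjusted p = 0.0716).

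Hadha, the alpha subunit of the trifunctional protein that carries hydratase and dehydrogenase activities for long chains (chromosome 5, 30118304 to 30155162), stood at 146, 147, 148 and 142 CPM in female KO, against 132, 126, 127 and 128 CPM in female WT. The groups did not overlap, and the log2 fold change was 0.19 ± 0.0307 (SE; edgeR adjusted p = 8.3e-06). Its partner Hadhb, the thiolase subunit, starts next to it on the other strand (30155248 to 30184593). Hadhb stood at 25.6, 25.6, 24.9 and 24.8 CPM in female KO, against 28.7, 24.8, 24.3 and 25.1 CPM in female WT, a log2 fold change of -0.03 ± 0.0621 (SE; edgeR adjusted p = 0.744). Hadhb libraries overlapped in both sexes. Of its 50-base words 18.1% also occur in the gene Gm13910.

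The other 8 mitochondrial genes were called in neither sex. In female cells their log2 fold changes lay between -0.15 for Eci1, an enoyl-CoA isomerase, and 0.08 for Acads, the short-chain acyl-CoA dehydrogenase. The Acads groups met at their edge without overlap, at 66.8 to 69.9 CPM in female KO against 62.4 to 66.8 CPM in female WT (edgeR adjusted p = 0.0937). In male cells they lay between -0.16 and 0.09. The lowest was Acaa2, the mitochondrial thiolase, at 23.4, 24.3 and 22.2 CPM in male KO, against 27.4, 25.6, 24.4 and 26.7 CPM in male WT. These did not overlap, at an edgeR adjusted p of 0.0522. Acadl stood at 136, 142 and 140 CPM in male KO, against 134, 135, 134 and 132 CPM in male WT, also without overlap (edgeR adjusted p = 0.213). The electron transfer genes Etfa, Etfb and Etfdh, which hand electrons of the dehydrogenases to ubiquinone, had log2 fold changes between -0.04 and 0.05 in both sexes, with overlapping libraries. Of the 50-base words of Etfb, 43.8% are shared with Gm45233, which overlaps it on the same strand.

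Of the 9 genes of peroxisomal oxidation, 4 fell in female KO and none rose (44.4% called, against 39.3% of all genes, of which 18.6% fell and 20.7% rose), at a median log2 fold change of -0.16. Beside Acox3 these were Acaa1a, Hsd17b4 and Scp2. Hsd17b4 (chromosome 18, 50128201 to 50196269) stood at 130, 136, 136 and 128 CPM in female KO, against 142, 142, 147 and 139 CPM in female WT, with no overlap. The log2 fold change was -0.11 ± 0.0314 (SE; edgeR adjusted p = 0.00635). Scp2, the sterol carrier protein whose longer form is a thiolase for branched chains, stood at 43.7, 39.7, 43.5 and 43.4 CPM in female KO, against 45.6, 49.6, 51.0 and 47.8 CPM in female WT. These did not overlap, at a log2 fold change of -0.19 ± 0.0456 (SE; edgeR adjusted p = 0.00116), and 29.7% of its 50-base words are shared with the pseudogene Scp2-ps2. Acaa1a, the peroxisomal thiolase, stood at 46.7, 41.1, 40.7 and 38.0 CPM in female KO, against 44.4, 50.9, 45.3 and 45.7 CPM in female WT. The first of these KO libraries lay within the WT range, and the log2 fold change was -0.16 ± 0.054 (SE; edgeR adjusted p = 0.0152). The Acaa1a call was lost without female KO replicate 4 or female WT replicate 2 (adjusted p up to 0.0865), and 12.4% of its 50-base words are shared with Acaa1b. Its exons share 290 bases with Myd88 on the opposite strand, which rose in female KO (log2 fold change 0.27, edgeR adjusted p = 0.0062). In male cells Acaa1a stood at 39.9, 41.4 and 39.3 CPM in KO, against 45.7, 46.5, 41.4 and 42.1 CPM in WT, without overlap and without a call (edgeR adjusted p = 0.123).

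The other 5 peroxisomal oxidation genes were called in neither sex. The L-bifunctional enzyme Ehhadh, a known PPAR alpha target of liver, had a log2 fold change of -0.27 ± 0.136 (SE) in female cells and -0.18 ± 0.141 (SE) in male cells (edgeR adjusted p = 0.111 and 0.433). Its libraries overlapped, at 58 to 144 counts. Phyh, which starts the alpha-oxidation of phytanic acid, was at -0.17 ± 0.0691 (SE) in female cells and just missed the threshold (edgeR adjusted p = 0.0546). The racemase Amacr, the reductase Decr2 and the isomerase Eci2 lay between -0.18 and -0.00424 in both sexes. Among the 4 import genes, Pex19, a chaperone of peroxisomal membrane proteins, stood at 90.9 to 93.0 CPM in female KO against 94.6 to 99.6 CPM in female WT, with no overlap and an edgeR adjusted p of 0.073. The docking protein Pex14 and the membrane transporter Abcd3 lay between -0.02 and 0.06 in both sexes, and 1776 exon bases of Pex14 overlap Gm17029 on the opposite strand.

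Libraries did not overlap between KO and WT for 7 of the 40 genes in male cells (17.5%), against 27.7% of all genes tested. In female cells this held for 16 of the 40 (40%), against 36.1% of all genes. The female count held 12 genes lower and 4 higher, against 16.7% and 19.4% of all genes.

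Set against each other, the mitochondrial sum differed little between the groups, while the peroxisomal sum was lower in female KO than in female WT. The 12 mitochondrial beta-oxidation genes summed to 225 ± 3.67 CPM per kb in male KO and 227 ± 5.36 CPM per kb in male WT (SD, n = 3 and 4). In female cells they summed to 226 ± 4.95 CPM per kb in KO and 230 ± 2.03 CPM per kb in WT (SD, n = 4 each). The 9 peroxisomal oxidation genes summed to 93.7 ± 1.52 CPM per kb in male KO and 96.3 ± 2.33 CPM per kb in male WT, with overlapping libraries. In female cells they summed to 92.3 ± 2.94 CPM per kb in KO (89.7 to 95.1) and 101 ± 2.38 CPM per kb in WT (98 to 104), which did not overlap. The ratio of the mitochondrial to the peroxisomal sum lay between 2.40 and 2.51 in female KO libraries, against 2.22 and 2.32 in female WT libraries. In male cells it lay between 2.33 and 2.48 in KO and between 2.33 and 2.38 in WT, so that the groups overlapped. These sums are weighted by the genes highest per kb, Acadl and Hsd17b4, depend on the exon lengths used, and are given without a test.

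**Figure D4:**
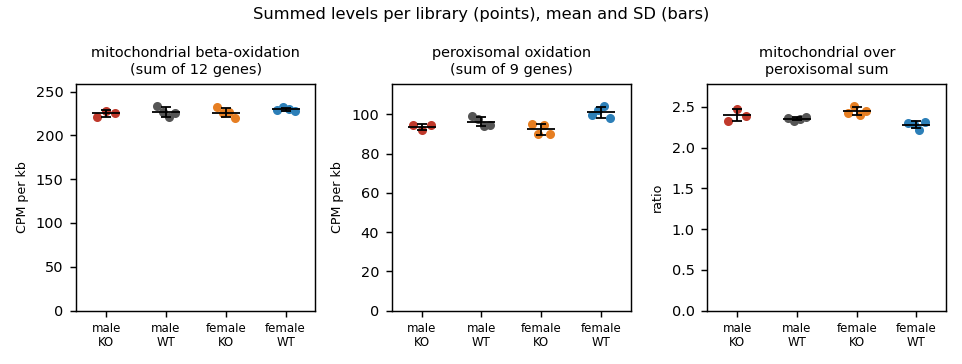
Summed level of the 12 mitochondrial beta-oxidation genes (left) and the 9 peroxisomal oxidation genes (middle), in CPM per kb, and their ratio (right), per library (points) with mean and SD (bars), in male KO, male WT, female KO and female WT. Axes start at 0. On average female WT has the highest peroxisomal sum, 98 to 104 CPM per kb, and the lowest ratio, 2.22 to 2.32.

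The difference between the female and the male KO effect compared the KO-to-WT change of the sexes, each group being a separate pool. It passed the test for 4 of the 40 genes (10%), against 15.6% of all genes tested, with 2 higher (5%, against 9.76%) and 2 lower (5%, against 5.89%). None of them reached 1.5-fold, against 3.29% of all genes, and 10 members (25%, against 27.0%) had an unadjusted p below 0.05. With libraries scaled by size alone there were 1 higher and 6 lower instead of 2 and 2, while the share higher among all genes called moved to 46.3% instead of 62.4%. For Hadha the difference was 0.22 ± 0.045 (SE; edgeR adjusted p = 0.000577), with male libraries at 142, 138 and 145 CPM in KO against 147, 145, 138 and 150 CPM in WT. For Hadh it was -0.21 ± 0.0618 (SE; edgeR adjusted p = 0.0134), with male libraries at 55.4, 58.3 and 60.2 CPM in KO against 54.2, 55.8, 51.8 and 57.7 CPM in WT. For Scp2 it was -0.21 ± 0.0671 (SE; edgeR adjusted p = 0.0258), with male libraries at 43.2, 44.0 and 46.0 CPM in KO against 45.7, 44.6, 43.2 and 40.9 CPM in WT. The male groups overlapped for all 3 genes. The Hadh call was lost without male KO replicate 3 (adjusted p = 0.062). The Scp2 call was lost when female KO replicate 2, female WT replicate 2, female WT replicate 3, male KO replicate 3 or male WT replicate 4 was left out (adjusted p up to 0.0943).

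Pex5, the receptor that brings matrix enzymes into the peroxisome, was called for the difference although it was called in neither sex alone. It stood at 57.9, 53.8 and 55.5 CPM in male KO, against 61.2, 57.8, 60.1 and 62.1 CPM in male WT. In female cells it stood at 57.1, 58.8, 53.1 and 58.8 CPM in KO, against 56.0, 54.2, 53.3 and 53.5 CPM in WT. Libraries overlapped in both sexes, at log2 fold changes of -0.11 ± 0.0431 (SE) in male and 0.07 ± 0.0405 (SE) in female cells. The difference was 0.18 ± 0.0592 (SE; edgeR adjusted p = 0.0277), and it was lost in 8 of 23 alternatives, namely library size scaling and the fits without female KO replicate 2 or 4, female WT replicate 3 or 4, male KO replicate 2 or 3, or male WT replicate 4 (adjusted p up to 0.111).

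Female and male WT cells, which stand for separate pools, differed in 9 of the 40 genes (22.5%), against 28.6% of all genes tested, and in 12 (30%, against 38.2%) at an unadjusted p below 0.05. Libraries did not overlap for 6 of the 40 (15%), against 27.5% of all genes. Fabp3, Eci1, Acat1, Decr1 and Scp2 were higher in female WT, and Plin2, Acsl5, Hadha and Pex5 were lower. With libraries scaled by size alone 9 were higher and 3 lower, and the share higher among all genes called moved to 55.2% instead of 44.1%. Fabp3 stood at 1.06, 0.798, 1.27 and 1.15 CPM in female WT, against 0.486, 0.833, 0.686 and 0.587 CPM in male WT, a log2 fold change of 0.77 ± 0.252 (SE; edgeR adjusted p = 0.02). It was the only member called at 1.5-fold or more (2.5%, against 5.06% of all genes), and its libraries overlapped. Acat1, the acetoacetyl-CoA thiolase, stood at 32.4, 29.6, 30 and 29.2 CPM in female WT, against 25.8, 27.1, 25.1 and 25.8 CPM in male WT, at 0.22 ± 0.0549 (SE; edgeR adjusted p = 0.00193). Hadha was lower in female WT, at -0.18 ± 0.0306 (SE; edgeR adjusted p = 2.26e-05), as were Acsl5 at -0.19 ± 0.0318 (SE; edgeR adjusted p = 1.07e-05) and Pex5 at -0.15 ± 0.0398 (SE; edgeR adjusted p = 0.00321). These female and male libraries did not overlap. Plin2, at -0.07 ± 0.026 (SE; edgeR adjusted p = 0.0468), lost its call in 20 of 24 alternatives. The calls of Eci1, Decr1 and Fabp3 were lost in 11 of 24, 10 of 24 and 4 of 23 alternatives, and that of Scp2 without female WT replicate 3 (adjusted p = 0.0543). Sex and pool cannot be told apart here.

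With each pool summed and taken as the unit (2 KO and 2 WT pools with sex as a term, 1 residual degree of freedom), edgeR called none of the 40 and 1 gene of 13912 (0.00719%), Thbs2, which is no member and is named after its value was seen. At an unadjusted p below 0.05 it had 4 members, Cpt1a, Acadvl, Acaa1a and Acox3, 10% of them against 17.7% of all genes. The log2 fold changes were -0.27 ± 0.0521 for Cpt1a, -0.19 ± 0.0456 for Acadvl, -0.15 ± 0.0501 for Acaa1a and -0.18 ± 0.053 for Acox3 (SE). Their edgeR adjusted p ran from 0.142 for Cpt1a to 0.239 for Acaa1a. The limma-voom fit of the same pools likewise called no member.

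Around the 40 genes, 153 other genes of the same pathways had been listed, of which 133 were tested. In male cells 9 rose and 12 fell (15.8%, against 20.2% of all genes), and in female cells 21 rose and 29 fell (37.6%, against 39.3% of all genes). Some genes stand on more than 1 of the lists below.

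Among 19 tested targets of PPAR alpha outside the 40, 2 rose and 6 fell in male KO, and 3 rose and 5 fell in female KO. That is 42.1% called in each sex, against 20.2% of all genes in male cells and 39.3% in female cells. Fgf21, a hormone induced by fasting in liver, averaged 2.74 ± 0.442 CPM in female KO and 7.72 ± 0.853 CPM in female WT (SD, n = 4 each), a log2 fold change of -1.5 ± 0.127 (SE; edgeR adjusted p = 1.11e-11). In male cells it averaged 2.19 ± 0.223 CPM in KO (n = 3) and 3.4 ± 0.459 CPM in WT (n = 4), a log2 fold change of -0.64 ± 0.164 (SE; edgeR adjusted p = 0.00403). The female fall was the larger, by -0.86 ± 0.214 (SE; edgeR adjusted p = 0.00419). Pdk4, the kinase that restrains glucose oxidation, and Angptl4, an inhibitor of lipoprotein lipase, fell in both sexes as well, and both were chosen here after their values were seen, as was the uncoupling protein Ucp2, at -0.10 in male and -0.09 in female cells, whose calls were lost in 15 and 7 of 24 alternatives. Pdk4 averaged 13.7 ± 1.65 CPM in male KO and 18.8 ± 1.43 CPM in male WT, and 13.3 ± 0.538 CPM in female KO and 19.1 ± 1.03 CPM in female WT (SD, n = 3, 4, 4 and 4). Its log2 fold changes were -0.45 (edgeR adjusted p = 3.9e-05) and -0.51 (edgeR adjusted p = 6.47e-07). Angptl4 had log2 fold changes of -0.40 in male cells (edgeR adjusted p = 1.25e-07) and -0.27 in female cells (edgeR adjusted p = 1.46e-05).

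Not all targets moved this way. Txnip, which binds thioredoxin, rose by 0.09 in male and 0.11 in female KO on the log2 scale (edgeR adjusted p = 0.0188 and 0.00085), and the triglyceride lipase Pnpla2 by 0.11 in male KO (edgeR adjusted p = 0.0244). Pnpla2 was also called higher in female KO. The male Txnip call was lost without male KO replicate 1 or 2 (adjusted p up to 0.063). The male Pnpla2 call was lost without male KO replicate 2 or 3 or male WT replicate 3 (adjusted p up to 0.119). Fabp1, the liver-type fatty acid-binding protein, rose by 0.45 ± 0.142 (SE) in female KO (edgeR adjusted p = 0.0113), a call lost without female KO replicate 1 (adjusted p = 0.116). Mgll, the monoglyceride lipase, fell in male KO to 8.57 ± 0.46 CPM, against 14.1 ± 1.58 CPM in male WT, a log2 fold change of -0.72 ± 0.104 (SE; edgeR adjusted p = 3.88e-06). Its effect differed between the sexes by 0.60 ± 0.139 (SE; edgeR adjusted p = 0.00209), with 13.0 ± 2.09 CPM in female KO and 14 ± 0.811 CPM in female WT. Cyp4a12b, a fatty acid omega-hydroxylase, fell by 0.73 ± 0.169 (SE) on the log2 scale in female KO (edgeR adjusted p = 0.000712).

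Of 19 tested PPAR receptors and coregulators none was called in male cells, and 4 rose and 1 fell in female KO (26.3%, against 39.3% of all genes). Ppard, the PPAR delta receptor, averaged 50.8 ± 1.78 CPM in female KO and 43.0 ± 2.18 CPM in female WT (SD, n = 4 each), a log2 fold change of 0.24 ± 0.048 (SE; edgeR adjusted p = 0.000131). The coactivator Ppargc1b rose by 0.48 ± 0.155 (SE) in female KO (edgeR adjusted p = 0.0134), and this call was lost without female KO replicate 2 or female KO replicate 4 (adjusted p up to 0.0691). Rxra, the partner receptor of PPAR alpha, fell by 0.13 ± 0.0361 (SE) on the log2 scale (edgeR adjusted p = 0.00466).

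Among 18 other genes of mitochondrial oxidation 1 rose and 1 fell in male KO, and 1 rose and 9 fell in female KO, at a median female log2 fold change of -0.15. The shares called were 11.1% in male cells, against 20.2% of all genes, and 55.6% in female cells, against 39.3% of all genes (18.6% lower). The 4 genes of the propionate route, Pcca, Pccb, Mut and Mcee, were among the 9, as were Ivd and Acadsb of branched-chain amino acid breakdown, and of these Pccb, Mut, Mcee and Acadsb are named after their values were seen. Pcca, a subunit of propionyl-CoA carboxylase, averaged 16.9 ± 0.938 CPM in female KO and 23.2 ± 0.833 CPM in female WT (SD, n = 4 each; log2 fold change -0.45 ± 0.0587, edgeR adjusted p = 9.82e-08). Ivd, the isovaleryl-CoA dehydrogenase of leucine breakdown, averaged 24.9 ± 0.545 CPM in female KO and 31.9 ± 1.51 CPM in female WT (log2 fold change -0.36 ± 0.0499, edgeR adjusted p = 4.81e-07). Both effects differed from those in male cells, by -0.38 (edgeR adjusted p = 0.00168) and -0.27 (edgeR adjusted p = 0.00724). The ketone body enzyme Bdh1 rose in both sexes, by 0.27 in male and 0.25 in female KO on the log2 scale (edgeR adjusted p = 0.015 and 0.0119). Both of its calls depended on single libraries, the male one on male KO replicate 3 and male WT replicate 3 (adjusted p up to 0.0892) and the female one on female KO replicate 2 (adjusted p = 0.0505). Acad11 fell in both sexes, by 0.19 ± 0.0456 (SE) on the log2 scale in male KO (edgeR adjusted p = 0.00184) and by 0.27 ± 0.0421 (SE) in female KO (edgeR adjusted p = 3.6e-06).

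Among 15 tested genes of mitochondrial uptake and activation, 1 rose and 2 fell in male KO (20%, against 20.2% of all genes), and 2 rose and 4 fell in female KO (40%, against 39.3% of all genes). The thioesterase Acot7 rose in both sexes. It averaged 134 ± 3.4 CPM in male KO and 114 ± 4.09 CPM in male WT, and 136 ± 3.96 CPM in female KO and 87.1 ± 2.77 CPM in female WT (SD, n = 3, 4, 4 and 4). The log2 fold changes were 0.23 ± 0.0352 (edgeR adjusted p = 7.58e-06) and 0.65 ± 0.0335 (SE; edgeR adjusted p = 4.74e-17), and the difference of 0.42 ± 0.0487 passed the test (edgeR adjusted p = 6.92e-08). Cpt1c, a brain form of the acyltransferase, fell by 0.23 in male and 0.25 in female KO on the log2 scale (edgeR adjusted p = 0.0403 and 0.00661). The male call was lost with DESeq2 and without male KO replicate 2 or 3 or male WT replicate 1, 2 or 4 (adjusted p up to 0.237), and the female call without female WT replicate 4 (adjusted p = 0.063). Acot9 rose by 0.17 in female KO (edgeR adjusted p = 0.00127). Acss1, the mitochondrial acetyl-CoA synthetase, had 0.559 ± 0.192 CPM in female KO and 1.14 ± 0.234 CPM in female WT (SD, n = 4 each; log2 fold change -1.02 ± 0.279, edgeR adjusted p = 0.00376).

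In the peroxisome beyond the 40 genes, 23 genes were tested from a list of oxidation that also holds other steps, such as ether lipid synthesis. Of these, 1 was higher and 2 lower in male KO (13.0% called, against 20.2% of all genes). In female KO 2 were higher and 4 lower (26.1% called, against 39.3% of all genes). The genes called higher were Ephx2 in female KO and Agps in both sexes. Acox2, the oxidase of bile acid intermediates, fell in both, with 6.16 ± 0.579 CPM in male KO and 7.74 ± 0.567 CPM in male WT, and 6.87 ± 0.822 CPM in female KO and 9.69 ± 1.5 CPM in female WT (SD, n = 3, 4, 4 and 4). The log2 fold changes were -0.34 (edgeR adjusted p = 0.0387) and -0.48 (edgeR adjusted p = 0.000369), and the male call was lost with DESeq2 and without male KO replicate 1 or 3 or male WT replicate 1 or 2 (adjusted p up to 0.211). Agps, an enzyme of ether lipid synthesis, rose by 0.16 in male and 0.10 in female KO on the log2 scale (edgeR adjusted p = 0.00296 and 0.0345). Under some alternative settings, 0 genes of this list were called higher in female KO.

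Of 11 tested genes listed as matrix enzymes outside beta-oxidation, 2 rose in male KO (18.2%, against 20.2% of all genes). In female KO 5 rose and 2 fell (63.6%, against 39.3% of all genes). How far each of these enzymes lies in the peroxisome was not tested. Mvk, mevalonate kinase of the cholesterol pathway, rose in both sexes, by 0.34 ± 0.0668 (SE) in male KO (edgeR adjusted p = 0.000274) and 0.49 ± 0.0645 (SE) in female KO (edgeR adjusted p = 1.43e-07). Xdh, xanthine dehydrogenase, rose by 0.51 ± 0.12 (SE) in female KO (edgeR adjusted p = 0.000836). The glutathione transferase Gstk1 and the peroxiredoxin Prdx5 fell in female KO, by 0.53 and 0.17 on the log2 scale (edgeR adjusted p = 0.000249 and 1.19e-05). Of 20 other peroxins and membrane proteins none rose in either sex, while 2 fell in male KO and 4 in female KO (10% and 20%, against 10.1% and 18.6% of all genes lower). Pex6, an ATPase that recycles Pex5, fell by 0.14 in male and 0.16 in female KO on the log2 scale (edgeR adjusted p = 0.0382 and 0.00584). The male Pex6 call was lost with DESeq2, with no filter, with the male groups fitted alone and without any 1 of the male KO libraries or male WT replicate 1 or 2 (adjusted p up to 0.135).

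Of 18 tested genes of lipid droplets and fatty acid binding, 3 rose and 1 fell in male KO (22.2%, against 20.2% of all genes), and 6 rose and 1 fell in female KO (38.9%, against 39.3% of all genes). Fabp5, the epidermal fatty acid-binding protein, averaged 16.3 ± 1.73 CPM in male KO and 10.5 ± 1.04 CPM in male WT (SD, n = 3 and 4), a log2 fold change of 0.64 ± 0.09 (SE; edgeR adjusted p = 1.52e-06). In female cells it averaged 15.5 ± 0.822 CPM in KO and 9.36 ± 1.08 CPM in WT (SD, n = 4 each), a log2 fold change of 0.73 ± 0.0871 (SE; edgeR adjusted p = 2.15e-08). Plin3, another droplet coat protein, rose by 0.17 ± 0.037 (SE) in male KO (edgeR adjusted p = 0.00101). It was also called higher in female KO. G0s2, an inhibitor of triglyceride lipase, fell in female KO to 4.27 ± 0.592 CPM, against 6.94 ± 1.01 CPM in female WT, a log2 fold change of -0.70 ± 0.127 (SE; edgeR adjusted p = 3.23e-05).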

How the data were processed

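RNA was extracted with Trizol and RNeasy columns and made into strand-specific libraries, per the labels' protocols. The authors aligned reads with STAR 2.6.1 to mm10 and counted them with featureCounts, per the submitters' processing notes. Those notes list edgeR 3.26.8 and limma 3.40.6 too. For the counting, annotation and strand setting are not given in the sources used here. The deposited values were gene counts and CPM. The deposited CPM equalled the counts divided by the library total within 1e-06 and served only for that check.

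From the counts, genes that passed filterByExpr (minimum count 10, minimum total 15) were kept, 13912 of 24421, of which 5184 had no count. Tests were edgeR 4.0.16 quasi-likelihood tests (R 4.3.3, TMM scaling, robust fit, 1 mean per group over all 15 libraries) with Benjamini-Hochberg adjustment over all genes tested and a threshold of 0.05. The common biological coefficient of variation was 3.59%. Printed CPM are TMM-scaled, with errors as SD over libraries. Total counts ran from 17648416 to 30896637, and intervals and limits cover counting error between libraries of a pool only. DESeq2 1.42.0 and limma 3.58.1 were alternatives, with other scalings and filters, a replicate block and each library left out. Scripts were tested on simulated data. Exon lengths and positions came from GENCODE on GRCm38 and promoters from RefSeq on GRCm38.p6. Tables and plots were made with pandas 2.3.3, numpy 2.4.6 and matplotlib 3.10.9.

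The members and all gene lists were chosen with earlier results of these data known. All 40 members are named. Of each other list, up to 2 genes called in each direction and sex, with the largest change and a mean of at least 1 CPM, were eligible to be named, and others are said to be chosen after their values were seen. Replicate numbers mark technical splits and are not stated to pair libraries. Some genes of these lists are not reported here.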

Additional observations from a re-analysis of the deposited data

Results flagged for a closer look

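In 7 of 120 groups of 4 libraries of a member, 1 library lay far from the others relative to the range of its group. A rate of 1 in 20 would give 6.0 by chance. Cd36 was at 1.57 CPM in female WT replicate 1, with the other libraries of the group at 0.928 to 0.958 CPM. Acot2 was at 5.61 CPM in male WT replicate 2 (others 4.47 to 4.64 CPM) and at 4.1 CPM in female WT replicate 2 (others 4.98 to 5.12 CPM). Acadl was at 128 CPM in female WT replicate 1 (others 134 to 136 CPM), and Abcd3 at 79.9 CPM in female WT replicate 3 (others 75.8 to 76.5 CPM). Acadm was at 45.6 CPM in female KO replicate 3 (others 44.4 to 44.5 CPM), and Scp2 at 39.7 CPM in female KO replicate 2 (others 43.4 to 43.7 CPM).

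The KO effect differed between female and male cells for 4 members in edgeR's test of the difference, female minus male on the log2 scale. The difference was 0.22 for Hadha (edgeR adjusted p = 0.000577), -0.21 for Hadh (edgeR adjusted p = 0.0134), -0.21 for Scp2 (edgeR adjusted p = 0.0258) and 0.18 for Pex5 (edgeR adjusted p = 0.0277). Sex and pool cannot be told apart in these differences, and endothelial marker sums differed between the pools in the same comparison, at 49.2 to 64.2 CPM in female KO against 43.3 to 50.7 CPM in female WT and 49.8 to 56.5 CPM in male KO against 109 to 122 CPM in male WT. In the same test of the difference, 15.6% of all genes were called. Called markers were 9 of 10 endothelial, 8 of 9 smooth muscle and pericyte, 7 of 8 podocyte and 5 of 9 fibroblast. Also called were 5 of 12 proximal tubule and 3 of 7 thick limb and distal nephron markers. Of leukocyte and macrophage markers 0 of 9 were called, and of adipocyte markers 0 of 5. The part of these cell types in the differences was not tested.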

How the results depend on the processing

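Of 6374 values of single genes under the alternatives, 6095 kept their side of the threshold, 185 lost and 94 gained a call, and none that was called in either fit turned its direction. Values near 0 that were not called did change sign under some alternatives, such as Cd36 in female cells, at -0.05 to 0.26. Members called in male cells numbered 3, and 5 under the stricter filter (5 CPM in 3 libraries), with 2 to 5 when 1 library was left out, of which 5 came without male WT replicate 1 or 3. In female cells they numbered 16, with 14 to 21 over the libraries left out. For the difference between the sexes they numbered 4, and 7 with scaling by library size only, with 1 to 8 over the libraries left out: 1 without male KO replicate 3, 8 without male WT replicate 1, and 2 without female KO replicate 2, female WT replicate 3 or male WT replicate 4. Female and male WT cells differed in 9 members, with 4 to 12 over the libraries left out and 4 without female WT replicate 3. With pools as units no member was called under any alternative, while the count over all genes was 1, 268 with scaling by library size only, 2 with upper quartile scaling, 0 with DESeq2 size factors, limma-voom or the stricter filter, and 0 to 43 over the libraries left out. The causes were not tested. Libraries with the same number had deviations from their group means that correlated at -0.028 to 0.165. Libraries with different numbers were not compared in this way, so the range cannot decide whether a number marks anything shared. The numbers are not stated to pair libraries and were not taken to do so. With a replicate block the members called numbered 4 in male cells, 19 in female cells, 5 for the difference and 11 between WT groups. Genes at 11 to 45 counts per library, such as Fabp3, Ppara, Ppargc1a and Cd36, have the least depth.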
